A study of Saccharomyces cerevisiae with 6 samples.

Results

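Rap1 is a sequence-specific DNA-binding protein of budding yeast that activates ribosomal protein, glycolytic and translation factor genes from sites upstream of them and coats the telomeres. Nucleosomes, of which histone H4 is a core component, wrap the coding part of genes, where the nucleosomes next to the start are strongly positioned, while active promoters are largely free of them. Sites that resemble Rap1's recognition sequence also occur inside genes, where nucleosomes can cover them. The regions described here are the sites in the first 500 bp of coding sequence that appeared in the Rap1 peak list after 2 h of H4 shutoff and were still listed at 4 h.

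There were 416 such sites, in 412 genes, out of 2438 peaks in the 2 h list and 7723 peaks in the 3 lists together. They were chosen by their peak calls. Each is a peak of the 2 h list that shares no base with a 0 h peak, is touched by a 4 h peak (1 bp or more), and has its summit inside a protein-coding span at most 500 bp after the coding start. The 2 h and 4 h calls and the missing 0 h call are therefore the selection itself and are given as description. Of 421 new 2 h peaks in that window, 416 overlapped a 4 h peak (98.8%, 95% exact binomial interval 97.3 to 99.6%, counting error only). The share was the same, 98.8% (762 of 771), for new 2 h peaks deeper in coding spans, and 96.6% for all 1387 new 2 h peaks. The 5 without a 4 h peak lay in PPH3, YDR170W-A, ALG13, ICT1 and MRM1, with fold enrichments from 1.97 to 2.80. Next to the distance limit, EAR1 (497 bp, fold enrichment 5.58) and PAB1 (499 bp, 3.67) were just inside, and PRC1 (502 bp, 3.53) and HXT10 (505 bp, 3.03) just outside.

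The data are Rap1 ChIP-seq of Saccharomyces cerevisiae strain UKY403, in which H4 is made in galactose medium and not in dextrose medium. All 6 samples were of this strain and were grown in galactose first. They fell into 3 groups of 2 biological replicates, collected 0, 2 and 4 h after the move to dextrose. Time in dextrose, loss of H4 and continued growth cannot be told apart in these samples, and no strain with constant H4 was analysed here.

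The deposited values are 1 peak list per time point, with no value per replicate, which leaves the replicate spread unknown, and no difference described here was tested across samples. The lists held 1212, 2438 and 4073 peaks and rested on 983197, 1483679 and 2327099 tags after removal of duplicates at 0, 2 and 4 h. Summit heights are counts of overlapping extended tags and are not scaled for depth. With 1 tag kept per position and strand and tags extended to 146 bp, a height cannot pass 292, the highest value in each list. At the lowest local background of each library this ceiling allows a fold enrichment of at most 15.6 at 2 h and 10.1 at 4 h, so high values are compressed, more so at 4 h. Fold enrichment is the authors' value per peak, the height over the local background of the same library, and is ranked only within a list. A site with no 0 h peak was below the calling threshold in the shallowest library, which does not show that Rap1 was absent there.

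The strongest near-start site at 2 h lay in NPL3, which encodes an mRNA-binding protein of RNA processing and export. This peak (sacCer3, chromosome IV, 1328894 to 1329274) had its summit 325 bp after the coding start and a height of 173 at 2 h and 267 at 4 h, with fold enrichments of 9.13 and 7.98 in those lists. YPR084W, an uncharacterised gene, followed with 8.71 and 8.60 (chromosome XVI, 707074 to 707430, summit at 269 bp). Both regions lacked a 0 h peak over a wide stretch, the nearest lying 15827 bp from the NPL3 site and 6579 bp from the YPR084W site.

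MDM32, which encodes a mitochondrial inner membrane protein, had fold enrichments of 8.18 and 8.72 at 175 bp. Its nearest 0 h peak was close, with a gap of 117 bp, and the gene had a weak upstream 0 h summit (2.58). YET2, encoding a protein of the endoplasmic reticulum, had 7.44 and 7.43 at 286 bp, and AIR2, encoding a subunit of the TRAMP complex of nuclear RNA surveillance, had 7.33 and 5.87 at only 39 bp.

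PHO5, the acid phosphatase gene that is a textbook case of repression by promoter nucleosomes, had a site at 409 bp in its coding sequence with 7.28 and 6.44. In TOS6, which encodes a cell wall protein, the site (274 bp, 7.21 and 5.66) had the largest height of all near-start sites at 2 h, 245, and a height of 271 at 4 h, where the ceiling allowed a ratio of at most 1.19. RCN1, encoding a calcineurin regulator, had 7.17 and 7.91 at 352 bp. SPE4, the spermine synthase gene, had 7.12 and 7.88 at 18 bp, and SAC1, encoding a phosphoinositide phosphatase, had 7.01 and 7.12 at 119 bp. These highest 10 sites thus ranged over nearly the whole window, from 18 to 409 bp. None belonged to a ribosomal protein gene, but such genes were only 8 of all 412 genes with a near-start site.

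Most near-start sites were much weaker. The median fold enrichment at 2 h was 2.92 (lowest 1.75, highest 9.13), 51 sites reached 5 and 133 were under 2.5. The median height was 59.5 and the median length 220 bp. The lowest were in FUM1, the fumarase gene (1.75), THI11, of a thiamine synthesis family with closely similar copies (1.81), and VRP1, encoding the actin regulator verprolin (1.86). Sites beyond 500 bp in coding spans, selected by the same calls, had a median of 2.93 (n = 762), while the 1051 peaks of the 2 h list that overlapped a 0 h peak had a median of 6.46. Of the near-start sites 16 passed that retained median. This gap is in part built into the selection, since retained peaks had passed the 0 h call and the near-start sites had not. Strength was nearly unrelated to position within the window (Spearman's rho 0.056 between distance and 2 h fold enrichment, over 416 sites of 1 library).

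Within the first 500 bp the summits were spread broadly, with fewest directly after the start. There were 65, 84, 91, 87 and 89 summits in successive bins of 100 bp. Set against the coding bases that all genes have in each bin, this was 10.8, 14.2, 15.7, 15.7 and 17.0 summits per 100 kb. The 109 near-start summits of the 0 h list went the other way, from 4.50 per 100 kb in the bin at the start to 2.67 in the bin at 400 to 500 bp. Late new near-start summits, listed at 4 h only (n = 526), numbered 15.0, 17.2, 22.5, 18.2 and 19.6 per 100 kb. Because a peak touching a 0 h peak is not a member, part of the first bin was closed to members: 4.08% of all genes had a 0 h peak over the coding start itself and 2.42% at 100 bp after it.

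The density in the window was close to that in the rest of the coding span. Over the whole window early new summits numbered 14.6 per 100 kb of coding bases, and beyond 500 bp 12.7. Near-start summits were 35.3% of the 1178 early new coding summits (interval 32.6 to 38.1%), and the window holds 32.2% of coding bases. The share was 34.6% (32.2 to 37.1%) of the 1520 late new coding summits and 48.7% (41.9 to 55.4%) of the 224 coding summits at 0 h. Of the 115 coding summits at 0 h beyond 500 bp, 39 lay in the single bin at 600 to 700 bp.

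**Figure D1:**
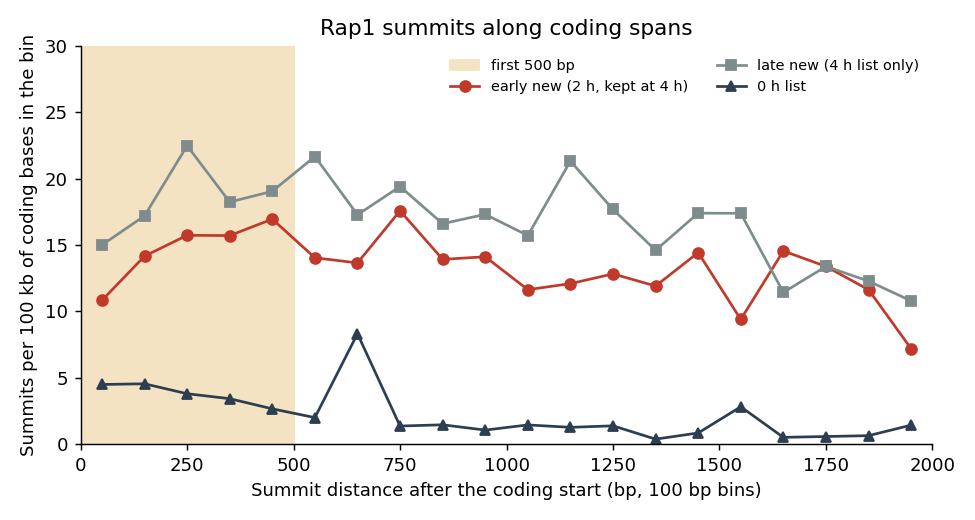
Number of Rap1 summits per 100 kb of coding bases (y axis) by distance of the summit after the coding start in 100 bp bins (x axis), for early new sites, late new sites of the 4 h list only and the 0 h list; the shaded band is the first 500 bp. Within the band early new sites go from 10.8 in the bin at the start to 17.0 at 400 to 500 bp, while the 0 h list goes from 4.50 to 2.67. Both are highest beyond the band, the 0 h list at 600 to 700 bp (8.32) and early new sites at 700 to 800 bp (17.6).

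The sites nearest to the start were in MRPL7 and MPD2, each 1 bp after it, ISD11 (1 bp), HTB1 (2 bp) and OXR1 (7 bp). MRPL7 encodes a mitochondrial ribosomal protein and had fold enrichments of 3.99 at 2 h and 5.80 at 4 h. ISD11, needed for iron-sulfur cluster assembly, had 4.02 and 5.60, and MPD2, encoding a protein disulfide isomerase, 3.35 and 4.28. The histone H2B gene HTB1 had 2.98 and 3.90, and OXR1, known from resistance to oxidative damage, 2.87 and 3.55. Intervals reached across the coding start into upstream sequence in 78 of 416 sites at 2 h (18.8%) and in 122 at 4 h (29.3%).

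Most sites kept their place between 2 and 4 h. The summit of the overlapping 4 h peak lay a median of 13 bp from the 2 h summit, within 50 bp for 365 sites (87.7%). The same held for 687 of 762 deeper sites (90.2%). The rule requires the 4 h peak to overlap the 2 h peak, so nearby summits are in part built into the selection. In 394 sites (94.7%, interval 92.1 to 96.7%) the 4 h summit was in the first 500 bp of the same gene. Of the other 22, the 4 h summit was before the coding start in 9, further along the same span in 11 and past its end in 2. For EAR1, YSH1, PAB1 and YNR014W this was a step of 5 to 11 bp across the limit.

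For 16 sites (3.85%) the 4 h peak also overlapped a 0 h peak, and in 9 of them the summit was over 50 bp away. A new site merged with a site present at 0 h and a new peak that widened cannot be told apart from the lists. Among the highest 4 h values, both the overlap and such a distant summit were seen at CCA1, COX4 and ENT4. CCA1, the gene of the enzyme that adds CCA ends to tRNAs, had 3.15 at 2 h at 203 bp and 9.26 at 4 h, where the summit was 231 bp before the start, next to a 0 h summit at 229 bp with a fold enrichment of 17.0. COX4, encoding a cytochrome c oxidase subunit, went from 4.85 to 8.64 with a summit 502 bp away. ENT4, encoding an epsin-like protein, went from 2.86 to 8.46 with a summit 518 bp away. These 4 h values belong to those distant summits and not to the new sites. Of the other sites among the highest 5 at 4 h, MDM32 (8.72, 4 h peak also overlapping a 0 h peak) and PSF3 (8.68), whose product belongs to the GINS complex of DNA replication, had their summits 1 and 17 bp from the 2 h position. The 4 h peak of PSF3 was clear of 0 h peaks.

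**Figure D2:**
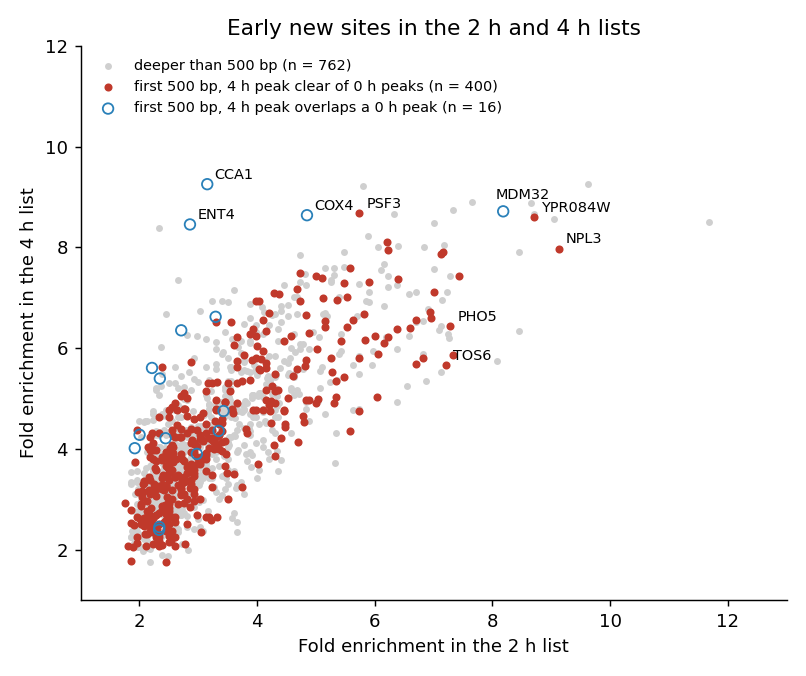
Fold enrichment in the 2 h list (x axis) and of the overlapping peak in the 4 h list (y axis), 1 point per early new coding site; red points are near-start sites with a 4 h peak clear of 0 h peaks, blue rings the 16 near-start sites whose 4 h peak overlaps a 0 h peak, and grey points sites beyond 500 bp. CCA1, ENT4 and COX4 stand above the cloud at 9.26, 8.46 and 8.64, and NPL3 is the farthest red point to the right, at 9.13.

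At 4 h the near-start sites were taller and wider than at 2 h. Height was larger at 4 h at all 416 sites, with a median of 126.5 against 59.5 and a median ratio of 2.00. The ratio was lowest at TOS6 (1.11) and highest at OPI3 (4.60), whose 4 h peak overlapped a 0 h peak. The ceiling of 292 bounds this ratio by the 2 h height, so the tallest 2 h sites could only have low ratios, and COX4 was at the ceiling at 4 h. The 4 h library held 1.57 times the kept tags and 1.27 times all tags of the 2 h library. The height ratio passed 1.57 at 357 sites (85.8%). To compare classes at like height, peaks with a 2 h height of 41 to 112 were taken, the 10th to 90th percentile of near-start sites, at the upper end of which the ceiling allows a ratio of at most 2.61. The median ratio was 2.04 for 328 near-start sites with a 4 h peak clear of 0 h peaks and 2.11 for 637 deeper sites. Retained peaks of like height, which overlapped a 0 h peak, had a median of 1.50, and 154 of 376 (41.0%) passed 1.57, against 287 of 328 near-start sites (87.5%) and 574 of 637 deeper sites (90.1%). Whether depth or duplicate removal enters these ratios was not tested; kept tags were 30.6% of all tags at 2 h and 37.8% at 4 h.

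**Figure D3:**
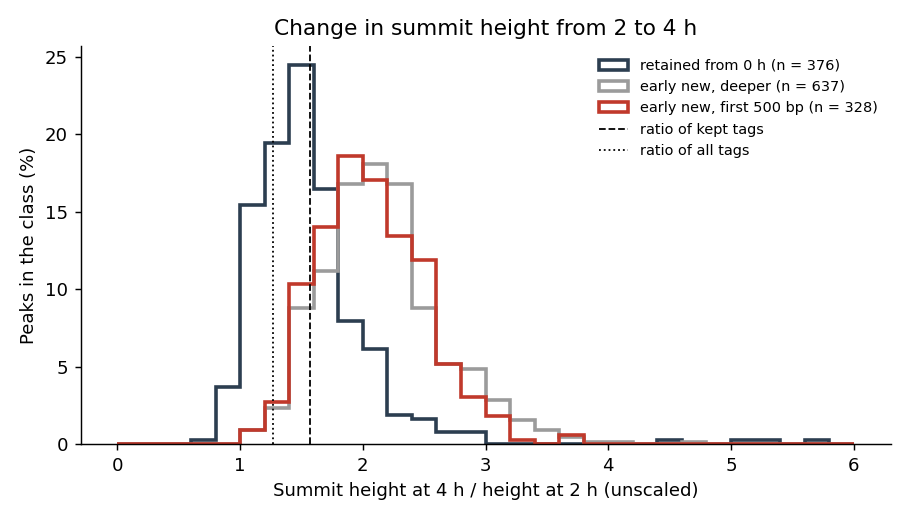
Distribution of the unscaled summit height at 4 h divided by that at 2 h (x axis), as percent of peaks in each class (y axis), for near-start early new sites, deeper early new sites and peaks retained from 0 h, all with a 2 h height of 41 to 112 and the new sites with a 4 h peak clear of 0 h peaks; vertical lines mark the ratio of kept tags (1.57) and of all tags (1.27). The early new classes lie together to the right of the kept-tag line, with medians of 2.04 and 2.11.

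Fold enrichment, relative to each library's own background, had a median of 4.04 at 4 h against 2.92 at 2 h, and was higher at 4 h at 354 of 416 sites, or 338 of the 400 with a 4 h peak clear of 0 h peaks. These values come from libraries with different backgrounds and ceilings and are set side by side as a description. A lower 4 h value at a strong site, such as NPL3 (9.13 and 7.98), cannot be told apart from the lower ceiling at 4 h. At 4 h 112 sites reached 5, or 104 of the 400 with a 4 h peak clear of 0 h peaks. Of the 112, 47 had done so at 2 h. The 2 values went together across sites (Spearman's rho 0.78 over 416 near-start sites and 0.73 over 762 deeper ones, as a description over peaks of the same libraries). Late new near-start sites, which had no 2 h peak, were weaker in the 4 h list (median 2.26, highest 4.94). This is in part built into the selection, since late sites missed the 2 h call that the early sites passed. Median length was 327 bp at 4 h against 220 bp at 2 h, and 389 sites were longer. In 3 cases a pair of 2 h sites fell in 1 peak at 4 h. One such pair was at 22 and 489 bp in RML2, a mitochondrial ribosomal protein gene (both 3.45 at 2 h, 4.94 at 4 h). Another was at 97 and 452 bp in SED1, a major cell wall protein gene (2.61 and 3.67, then 4.92), and the last at 282 and 406 bp in RPN6, a proteasome lid gene (2.18 and 2.44, then 3.83). DCW1, a cell wall gene, was the remaining gene with a pair of sites (57 and 358 bp, 2.15 and 1.86), which stayed separate.

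With the height and background of each 2 h peak divided by the ratio of kept tags (1.51), 391 near-start sites (94.0%, interval 91.3 to 96.1%) passed the weakest 0 h p-value, against 92.9% of all new 2 h peaks and 94.0% of the deeper sites. With the ratio of all tags (1.99) it was 363 (87.3%). The check used the heights of peaks already selected at the higher depth, which the intervals do not cover.

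A site upstream of the same gene at 0 h was not a general feature of these genes. Of 412 genes, 81 (19.7%, interval 15.9 to 23.8%) had a 0 h summit within 500 bp before the coding start, against 14.9% of all 6002 protein-coding genes and 17.7% (14.8 to 20.9%) of 628 genes with deeper early new sites only. Most of these genes therefore had a new coding site with no upstream site listed before. Among members the share was lowest in the bin at the start (7 of 65 sites) and highest at 400 to 500 bp (24 of 89). The rule bars a new site that touches a 0 h peak, and how far this enters the difference between bins was not tested. Without a 0 h upstream summit, 35 of 331 genes (10.6%) had one at 4 h, against 9.49% of all such genes.

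A 0 h peak lay within 500 bp of the interval at 98 near-start sites (23.6%) and at 38 of 762 deeper sites (4.99%), and the median gap was 3071 and 3107 bp. The closest was at DED81, the asparaginyl-tRNA synthetase gene (gap of 1 bp, 2.83 at 2 h and 3.37 at 4 h). Next came RPC40, encoding a subunit shared by RNA polymerases I and III (16 bp, 2.44 and 4.21), whose 4 h peak overlapped a 0 h peak. VPS3, of vacuolar sorting, followed (29 bp, 2.29 and 2.25). For DED81, RPC40 and VPS3 the 0 h peak was on the side of the gene start. Such sites sit next to a 0 h peak by position, and a widened or shifted peak and a separate site cannot be told apart from the lists. With no 0 h peak allowed within 200 bp, 380 sites remained, and 54 of their 377 genes (14.3%) had an upstream 0 h summit, near the 14.9% of all genes.

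**Figure D4:**
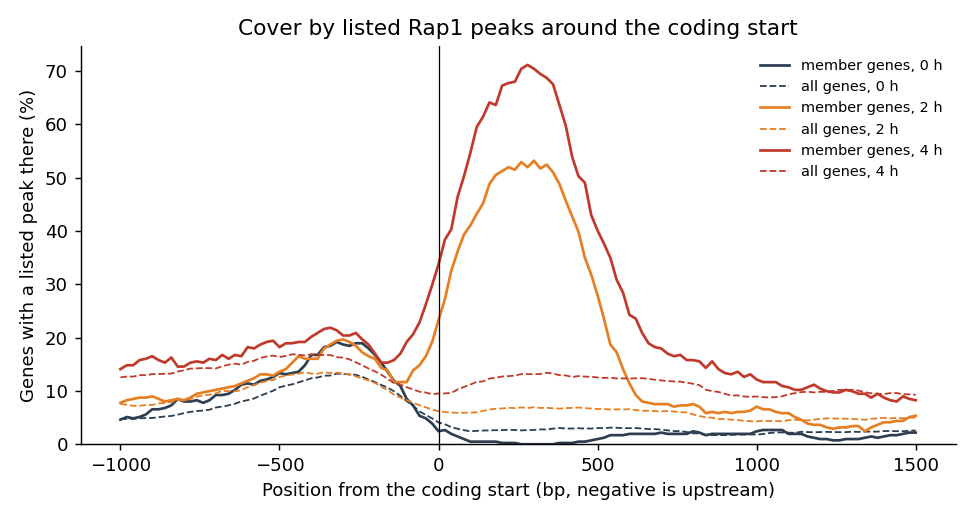
Percent of genes with a listed Rap1 peak over each position around the coding start (x axis, bp), at 0, 2 and 4 h, for the 412 genes with a near-start early new site (solid) and all 6002 protein-coding genes (dashed). The cover after the start at 2 and 4 h and its near absence at 0 h follow from the selection; upstream at 300 bp before the start the 412 genes had 18.7, 19.7 and 20.4% at the 3 times and all genes 13.2, 13.3 and 16.2%.

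Upstream cover in the plot around the coding start differed little between the times at 200 and 300 bp before the start, where 16.7 and 18.7% of these genes had a listed peak at 0 h and 17.0 and 20.4% at 4 h. Closer to the start it was 8.50, 11.7 and 19.2% at 0, 2 and 4 h at 100 bp before it, where intervals of the new sites reach. Further out it was 11.4, 11.9 and 18.2% at 600 bp and 4.61, 7.77 and 14.1% at 1000 bp before the start, and at these distances all genes had 8.27, 10.7 and 15.4% and 4.74, 7.56 and 12.5%. Past the window the direction of the difference depended on the position. At 1000 bp after the start the genes had peaks in 2.43, 7.04 and 12.1% of cases. This was above the 1.80, 4.28 and 8.95% of all genes at each time. At 1200 bp they had 0.971 and 3.64% at 0 and 2 h, below the 2.28 and 4.73% of all genes. At 4 h they were still above all genes at 1200 bp. Of the 412 genes 59 (14.3%) held another early new site, and 107 (26.0%) held 2 or more coding summits at 4 h, against 23.9% of all genes with any 4 h coding summit. Sites were mostly solitary: another early new summit lay within 500 bp of 24 sites (5.77%), and of 41 deeper sites (5.38%).

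A divergently transcribed neighbour lay upstream of 238 of 412 (57.8%, interval 52.8 to 62.6%), against 52.1% of all genes and 52.9% of genes with deeper early new sites only. The interval lies above the share of all genes, but no test was made. The median gap to the upstream neighbour was 496 bp, against 448 bp for all genes, and the median coding span was 1241 bp against 1200 bp. Genes with spans of 1000 to 2000 bp held a site most often (185 of 2266, 8.16%). Those up to 500 bp (50 of 893, 5.60%) and over 2000 bp (78 of 1326, 5.88%) held one least often. These shares are per gene, and spans shorter than the window have fewer coding bases in it. Of the 412 genes, 205 were on the plus strand. All 16 nuclear chromosomes had members, from 4.76% of genes on chromosome III to 9.22% on chromosome VIII, and 3 sites lay within 10000 bp of a chromosome end. In 3 sites the summit was in overlapping spans, once in the frames YFL002W-B and YFL002W-A, once in YMR045C and YMR046C, each with a shared start, and once in NAG1 and IMO32.

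Counts by gene group are read against the 6.86% of protein-coding genes (412 of 6002) that held a near-start site. The 20 groups examined took in 86 of the 412 genes. The groups are small and none was tested. They were chosen with earlier results of these data known, including those on histone and glycolysis genes. In the values below, given for 2 h and then 4 h, the 4 h summit lay over 200 bp from the 2 h summit in COX4 (502 bp), SDH1 (602 bp), CCT6 (314 bp), HHO1 (407 bp) and TDH1 (212 bp), and the 4 h peaks of COX4, HTB1 and GDB1 overlapped a 0 h peak.

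Among genes of sugar metabolism, 6 of 25 genes of glycolysis and ethanol formation (24.0%) held a site. PGK1, the phosphoglycerate kinase gene, had the strongest, with no 0 h peak in the site, 6.94 at 2 h and 6.72 at 4 h at 271 bp, next to an upstream Rap1 peak of 7.69 at 0 h. The enolase genes ENO2 (4.15 and 5.61) and ENO1 (3.28 and 4.55) and the triose phosphate isomerase gene TPI1 (2.76 and 3.77) also had upstream 0 h peaks, of 9.50, 14.4 and 11.2. TDH1 (2.71 and 3.28), a glyceraldehyde-3-phosphate dehydrogenase gene, and ADH2 (2.50 and 2.16), the glucose-repressed alcohol dehydrogenase gene, had none.

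Hexose transport and sensing had 6 of 24. MIG2, encoding a glucose repressor, had 6.04 and 5.04, and of the transporter genes HXT2 had 5.90 and 7.32. HXT5 had 4.46 and 4.77, and HXT7 had 2.87 and 3.23. All transporter sites in this group, including HXT3 and HXT6, lay between 366 and 484 bp after the start. Trehalose and glycogen metabolism had 3 of 18, GLG1 (5.00 and 7.43), which primes glycogen, the phosphoglucomutase gene PGM2 (3.61 and 6.06) and the debranching enzyme gene GDB1 (2.33 and 2.40). The tricarboxylic acid cycle and respiration had 4 of 55 (7.27%), near the background: CYT1, encoding cytochrome c1 (5.42 and 6.15), COX4, SDH1, a succinate dehydrogenase gene (2.15 and 4.05), and FUM1.

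Histone genes had the highest share, 5 of 11, though this group is the smallest. The H3 genes HHT1 and HHT2 had sites at 100 and 98 bp with 3.57 and 3.54 at 2 h and 4.80 and 5.15 at 4 h. HTA1, encoding H2A, had one at 99 bp (2.50 and 2.52), HTB1 the one at 2 bp described above, and HHO1, the linker histone gene, one at 409 bp (4.30 and 3.87). No near-start early new site was listed in the H4 genes. The labels do not say which histone loci of UKY403, a strain built for H4 shutoff, are intact.

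Translation factors had 7 of 41 (17.1%). SUI1, an initiation factor gene, had 6.70 and 5.68 at 315 bp, and PAB1, the poly(A)-binding protein gene, had 3.67 and 5.63. Of the genes for elongation factor 1-alpha, TEF1 had 5.15 and 6.41 and TEF2 5.03 and 4.99. TEF1 and TEF2 also had upstream 0 h peaks of 13.1 and 13.3. Ribosomal protein genes, the best known Rap1 targets, had near-start sites in 8 of 137 (5.84%), near the background, although 112 of them had an upstream 0 h summit. RPL36A had 4.81 and 5.65, RPL32 4.05 and 5.56, RPS4A 3.59 and 4.72, and RPS4B 3.32 and 5.32. Ribosome biogenesis factors had 3 of 72 (4.17%), KRE33 (4.20 and 6.69), UTP9 (3.30 and 4.79) and NOG2 (3.03 and 4.28), and aminoacyl-tRNA synthetases 1 of 20, DED81.

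Amino acid biosynthesis genes had 13 of 85 (15.3%). Of these 13 genes, MET10 and MET2 had an upstream 0 h summit, as did 22 of the 85 genes of the group and 14.9% of all protein-coding genes. The highest were CYS4, for cystathionine synthesis (5.34 and 5.35), CPA1, for a carbamoyl phosphate synthetase subunit (5.16 and 6.55), ARO8, an aromatic aminotransferase gene (5.10 and 7.39), and ILV6, for the regulatory subunit of acetolactate synthase (3.77 and 5.87). Ergosterol synthesis had 3 of 24, led by ERG10, the acetoacetyl-CoA thiolase gene (5.12 and 6.99), with NCP1 (2.81 and 2.51) and ERG6 (2.49 and 2.94).

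In protein folding and turnover, proteasome genes had 4 of 33, PUP3 (3.03 and 3.70), RPT4 (2.82 and 4.32), RPN8 (2.71 and 3.11) and RPN6, and chaperones 5 of 44, of which HSP150 (2.43 and 2.80), SSA2 (2.29 and 2.41), SIS1 (2.29 and 3.77) and CCT6 (2.06 and 3.30) were highest. None of the chaperone sites passed 2.5 at 2 h. DNA replication genes had 5 of 54 (9.26%), PSF3, RNR3, encoding a ribonucleotide reductase subunit (4.80 and 4.54), TAH11, the Cdt1 gene of replication licensing (3.92 and 5.77), CDC6 (2.24 and 2.47) and RFC3.

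Genes of transcription and chromatin were at or under the background. RNA polymerase II and Mediator genes had 4 of 67 (5.97%), TAF9 (5.53 and 7.01), SSN8 (2.88 and 3.70), GAL11 (2.71 and 3.23) and TFG1 (2.34 and 2.07). Chromatin remodelers and histone chaperones had 2 of 53, SNF2, encoding the SWI/SNF ATPase (3.14 and 2.66), and RVB2 (2.66 and 3.28). Secretory genes had 3 of 60, SEC27 (3.49 and 3.52), SEC23 (2.56 and 3.74) and SEC24 (2.13 and 2.96), and actin and polarity genes 3 of 53, ABP1 (4.48 and 4.50), ACT1 (2.39 and 3.83) and VRP1. Nuclear transport had 1 of 45, the importin gene KAP122 (6.38 and 6.39), and cyclins and their kinase genes had 0 of 24.

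**Figure D5:**
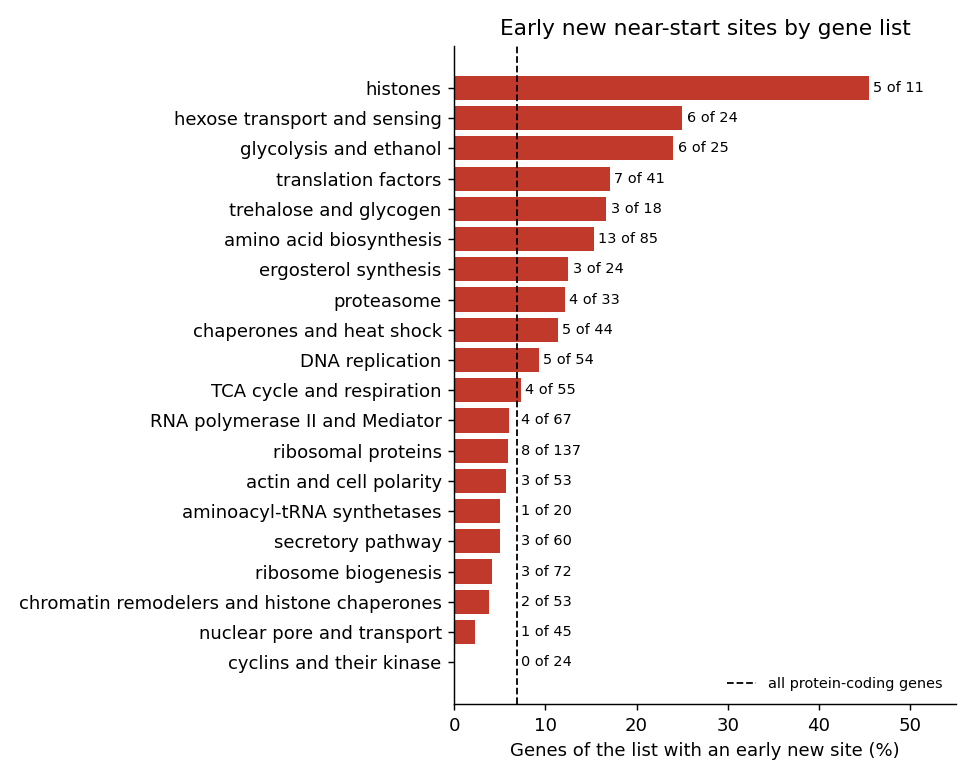
Percent of the genes of each of 20 groups with an early new Rap1 site in the first 500 bp (x axis), with the count and group size beside each bar; the dashed line is the 6.86% of all protein-coding genes. Histone genes are highest with 5 of 11, ribosomal protein genes are near the line with 8 of 137, and cyclins have 0 of 24.

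In 5 pairs of closely similar genes both copies carried a site, at almost the same place. The summits were 178 and 167 bp after the start in TEF1 and TEF2, 327 and 330 bp in RPS4A and RPS4B, 100 and 98 bp in HHT1 and HHT2, 493 and 473 bp in ENO1 and ENO2, and 453 and 452 bp in HXT6 and HXT7. These 5 pairs were singled out after their values were seen. In other pairs 1 copy held a near-start site and the other did not. Of 57 pairs of ribosomal protein genes named A and B, RPS4 alone had a near-start site in both copies and 4 pairs had one in a single copy (RPL36A, RPL4A, RPS11A and RPS21A), and HTA1, HTB1 and SSA2 held near-start sites without HTA2, HTB2 and SSA1. Beyond 500 bp, RPS11B (2.57 at 2 h and 3.95 at 4 h) and SSA1 (2.85 and 3.06) did hold early new sites, so for them the contrast rests on the distance limit. Tags that match both copies cannot be assigned to 1 of them, and the sources do not say how they were handled, so the members of a pair cannot be told apart.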

How the data were processed

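Rap1 ChIP-seq libraries of strain UKY403 were made from 2 biological replicates at each of 0, 2 and 4 h. Peaks were called with MACS2 2.0.10.20130712 without a control library at a q cutoff of 0.05, with 1 tag kept per position, per the file headers. The submitters' processing notes also list Bowtie, SAMtools and sacCer3. No source used here says if a list combines the replicates. Deposited values per peak are the height (an unscaled signal of extended tags), the fold enrichment (a ratio) and −log10 p and q values, all by the authors' caller. Without a control, uneven fragmentation or mapping is not corrected for. The local background was recovered as (height + 1)/fold − 1, and the Poisson p recomputed from it matched the deposited −log10 p-value within 0.00012.

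Peaks were placed on 6002 nuclear protein-coding spans (introns included) of the RefSeq R64 gene table, the assembly of sacCer3, with the strand read from the systematic name and the nearest coding start naming the gene. Python 3.11.15, pandas 2.3.3 and scipy 1.17.1 were used, and functions were checked on simulated peak lists. No test across samples was possible. Shares have 95% exact binomial intervals over peaks or genes. The members and gene lists were chosen with earlier results of these data known, including those on histone and glycolysis genes. Named genes followed a rule: the highest 10 and lowest 3 sites at 2 h, the highest 5 at 4 h, the 5 nearest to the start, genes with 2 sites, the 3 nearest to a 0 h peak, the sites at the limit and up to 4 per gene list. Others were named after their values were seen. The planned motif search was not run, because no genome sequence was used here.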

Additional observations from a re-analysis of the deposited data

How the results depend on the processing

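Of 416 near-start sites, 193 had a fold enrichment of at least 3 at 2 h, 242 lay within a limit of 300 bp, and 117 were left when the later lists were shortened to the length of the 0 h list. The share of early new coding sites that were near the start (35.3%) was 20.5% with a limit of 300 bp and 46.9% with 700 bp, by construction. The share of genes with an upstream 0 h summit (19.7%) was 14.3% with no 0 h peak within 200 bp, 15.4% with shortened lists, and 7.28 and 28.2% with upstream windows of 250 and 1000 bp. The share with the 4 h summit in the same window (94.7%) was 91.3 and 96.7% with limits of 300 and 700 bp and 96.8% where the 4 h peak was clear of 0 h peaks, an alternative chosen after seeing the data. The share passing the 0 h threshold (94.0%) was 87.3% when scaled by all tags. The cause of these shifts was not tested beyond the changed limits and windows themselves. A limit of 700 bp gave 552 sites. The settings −log10 q of at least 5, a minimum overlap set by the shorter peak, midpoints, single spans, and chromosome ends left out gave between 370 and 421 sites and shares within the intervals of the main values. No paired analysis was possible because each list gives 1 value per time point, and for the same reason no replicate could be left out. The shallower 0 h library limits which weak sites could be called there.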
